A study of Mus musculus with 10 samples.

Results

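The genes described here are a fixed set of 34 mouse genes whose products carry out or sustain the antiviral response to interferon. They were taken as listed, and the list was drawn up with earlier results of these arrays known. Of the 34 genes, 32 had a probe set annotated to 1 gene, among 18194 such genes on the array. Isg15, the ubiquitin-like modifier, is matched only by a probe set shared with another gene and was not analysed here, and neither was Ifi44, whose symbol is not in the annotation used. The 32 genes were read by 51 probe sets, and each gene was represented by its probe set with the highest mean over all arrays. All 32 passed the filter on dim genes, which asked for 1 array or more at or above the median of all its probe sets and left 11939 genes in all. The filter could be passed through a single array, and the least detected of the 32 was Mx2, which reached the array median on 2 of 10 arrays.

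Type I interferons bind a receptor of the subunits IFNAR1 and IFNAR2, and the kinases bound to it then activate STAT2. With IRF9, STAT2 acts in a complex that binds interferon-stimulated response elements in the promoters of many genes. The products include sensors of viral RNA, the factor IRF7 that widens the response, and effectors that degrade RNA, block translation or hold back virus entry and release. In T cells such genes are also expressed at a resting level without infection, set in part by tonic interferon signalling.

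RNA was measured on 10 Affymetrix mouse arrays, 1 for each of 10 groups of CD4+ T cells, all sorted from pooled lymph node and spleen of female mice aged 6 to 8 weeks. Foxp3 is the X-linked factor that defines regulatory T cells. Homozygous Foxp3(gfp/gfp) females, backcrossed 8 to 10 generations from 129/Sv to C57BL/6, carry a knock-in that makes a GFP-Foxp3 fusion protein in place of Foxp3, so every cell population from them has the altered allele. They gave GFP- CD25- cells (CD25neg), GFP- cells that carry CD25, the IL-2 receptor alpha chain (CD25pos), and GFP+ cells (GFPfoxp3). Foxp3(gfpko/wt) females, from backcross 5, have a null allele that makes GFP alone. Because of X inactivation their GFP+ cells (GFPko) transcribe the null locus and make no Foxp3, in a mouse whose other regulatory T cells use the wild-type allele. Arrays CD25pos_IL2, GFPko_IL2 and GFPfoxp3_IL2 came from mice given 4 injections of IL-2 at 50 ng per g within 24 h, with cells taken 30 min after the last. Whether the untreated mice received vehicle is not stated. The remaining 3 arrays held cells of C57BL/6 mice that had been activated in culture with antibodies to CD3 and CD28 and IL-2 and infected with a retroviral vector that also makes GFP. The MigR1 vector was empty, carried the cyclic nucleotide phosphodiesterase PDE3B (MigR1-PDE3B) or carried a mutant of it (MigR1-PDE3B(H801A)). The infected CD25+ cells were mixed with infected CD25- cells of Ly5.1+ origin and passed through TCRalpha-deficient recipients, which make no alpha-beta T cells of their own, and 3 weeks later GFP+ GITR+ Ly5.1- cells were sorted. GITR served as a stand-in for Foxp3 in this sort.

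With 1 array per group there is no replicate of any group, so population, mouse line, mouse pool and array cannot be told apart. Values are the deposited log2 expression values, with array medians between 3.04 and 3.22, and a value near the median lies near background. The labels were checked on Foxp3, which stood at 10.86 in both GFPfoxp3 arrays, at 8.33 and 9.39 in GFPko, at 11.3 to 11.5 in the transduced cells and at 2.45 to 3.90 in CD25neg and CD25pos cells. Whether its probe set lies within the part replaced in the null allele is not known here, so the GFPko level checks nothing. Pde3b measured 6.91 on the array labelled MigR1-PDE3B and 7.43 and 7.54 with the empty and the mutant vector, and whether its probe set reads the vector insert is not known either. T cell markers (9 of 9 measured, among them Cd3d, Cd3e and Cd4) lay above the array median on every array. The signal of the 3' minus the 5' Actb control, a sign of shortened RNA, was 2.70 to 3.80 in the 7 arrays of directly sorted cells and 5.87 to 6.38 in the 3 of transduced cells.

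Start-site windows from RefSeq (assembly GRCm38.p6, 250 bases before to 50 after each start) were found for 25 of the 34 genes. Mx1, Mx2, Oas2, Usp18, Dhx58, Rtp4, Zbp1, Parp9 and Parp14 were not matched. The core letters of the interferon-stimulated response element, GAAANNGAAA or on the other strand TTTCNNTTTC, occurred in 12 of the 25 (48%), namely Ifih1, Ddx58, Isg15, Oas3, Oas1a, Ifitm3, Bst2, Stat2, Rsad2, Eif2ak2, Ifit3 and Ifit1. The same letters occurred in 3.99% of all 27025 genes with such a window and in 3.81% of the genes kept on these arrays. Isg15 held 3 overlapping matches, and Bst2, Oas1a, Ifitm3, Ifit3 and Ifit1 held 2 each, those of Bst2 and Oas1a overlapping. A match describes the letters only and is not a shown binding site. The following stretches of 100 bases upstream of the start are shown because these genes carry the comparisons below, including Oas1a and Stat2, whose values differed in sign from most of the others in some of them. They are written 5′ to 3′ on the strand of the gene, with the matching letters in capitals.
Ifit1, chr19:34640749-34640848, plus strand: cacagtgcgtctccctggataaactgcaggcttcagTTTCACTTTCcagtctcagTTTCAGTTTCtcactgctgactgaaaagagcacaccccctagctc
Ifit3, chr19:34583345-34583444, plus strand: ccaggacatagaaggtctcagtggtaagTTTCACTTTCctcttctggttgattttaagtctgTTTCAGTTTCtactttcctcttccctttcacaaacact
Bst2, chr8:71537545-71537644, minus strand: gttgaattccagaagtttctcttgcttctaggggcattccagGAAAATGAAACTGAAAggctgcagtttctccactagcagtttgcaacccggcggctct
Rsad2, chr12:26456518-26456617, minus strand: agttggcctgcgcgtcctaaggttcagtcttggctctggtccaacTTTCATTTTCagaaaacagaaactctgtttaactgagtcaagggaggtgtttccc
Oas3, chr5:120777680-120777779, minus strand: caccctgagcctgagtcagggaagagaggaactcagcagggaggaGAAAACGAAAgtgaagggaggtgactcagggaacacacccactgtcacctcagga
Oas1a, chr5:120907526-120907625, minus strand: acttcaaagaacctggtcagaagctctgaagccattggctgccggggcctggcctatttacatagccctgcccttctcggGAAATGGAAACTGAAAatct
Stat2, chr10:128270248-128270347, plus strand: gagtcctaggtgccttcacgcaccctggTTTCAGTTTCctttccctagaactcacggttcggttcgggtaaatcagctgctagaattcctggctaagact

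The antiviral genes were measured well above background in most T cell populations. The mean log2 level of the 32 genes was 8.12 in CD25neg, 8.03 in CD25pos, 8.69 in GFPko and 8.12 in GFPfoxp3 cells, so that GFPko cells stood highest and the other 3 lay close together. With IL-2 the mean was 8.12 in CD25pos, 8.50 in GFPko and 8.17 in GFPfoxp3 cells. The transduced cells were lowest, at 7.41 for the empty vector, 7.44 for MigR1-PDE3B and 7.26 for the mutant. In bulk samples fewer cells of a type and less RNA per cell cannot be told apart. Mx2, a relative of the antiviral GTPase Mx1, ranged from 2.07 to 3.17 and is not read further except where named. Ifitm1 lay below the array median on 2 arrays, Oas3 on 2 and Oasl1 on 1, and the other 28 genes reached it on every array.

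**Figure D1:**
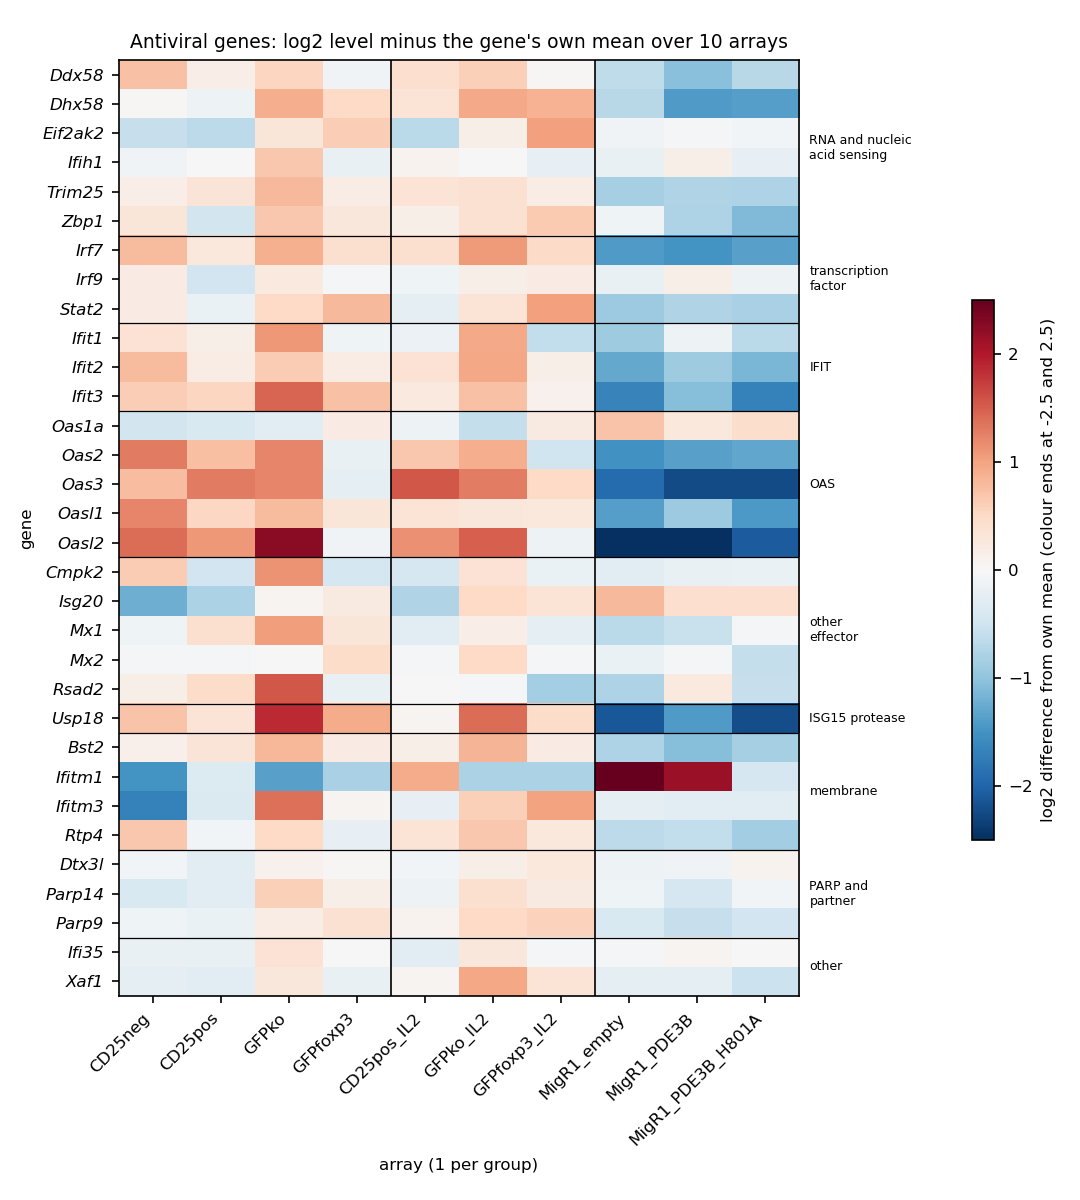
Colours give each gene's log2 level minus its own mean over the 10 arrays (rows are the 32 genes by role, columns the arrays, 1 per group). The GFPko column is mostly red and the 3 transduced columns are mostly blue, with Oas1a, Isg20 and Ifitm1 as exceptions.

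Among the 4 untreated sorted populations GFPko held the highest level for 19 of the 32 genes, where 23.8% of all genes were highest there, and the lowest level for none, where 25.2% were lowest. With each array centred on the median of the kept genes, 22 members and 36.4% of all genes were highest in GFPko. GFPfoxp3 cells were lowest for 10 genes, namely the sensors Ddx58 and Ifih1, the translation blockers Ifit1 and Ifit2, the 2',5'-oligoadenylate synthetase (OAS) family members Oas2, Oas3, Oasl1 and Oasl2, and Rsad2 and Rtp4. That count is near the share of all genes that were lowest there, 32.6%. The same cells were highest for Eif2ak2, Isg20, Mx2, Oas1a, Parp9 and Stat2, 6 genes beside 27.8% of all. CD25pos cells were lowest for 13 genes, among them Usp18, Irf7 and Irf9, beside 18.1% of all genes, and CD25neg cells for 9, among them Isg20 and Ifitm3, beside 24.1%. With 1 array in each group, neighbours in these orders have no spread to be set against.

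GFPfoxp3 and GFPko cells both transcribe the Foxp3 locus and differ in whether Foxp3 protein is made, and they come from separate mouse lines. Of the 32 differences between them 26 were below 0, that is, lower in GFPfoxp3 cells. Under limma 5 genes fell, Oasl2, Oas2, Ifit1, Usp18 and Bst2, and 0 rose at an adjusted p under 0.05, where 2.03% of all genes fell and 5.44% rose. The median difference of the 32 was -0.49, against 0.01 over all genes. At an unadjusted p under 0.05 there were 16 lower and 3 higher, where 8.29% of all genes were lower and 17.7% higher by that rule. Each population gave 2 arrays, without and with IL-2, so the standard errors (± below) and p-values measure how alike a difference was in both IL-2 states and not how it repeats between mice.

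Oasl2, an OAS-like protein with a ubiquitin-like tail, stood at 8.18 and 7.42 in GFPko cells without and with IL-2 and at 5.84 and 5.79 in GFPfoxp3 cells. Its difference was -1.99 ± 0.23 (adjusted p = 0.0243), or 3.96-fold lower. Oas2, which makes the second messenger that activates RNase L, measured 8.05 and 7.73 in GFPko and 6.65 and 6.34 in GFPfoxp3 cells. Both arrays of one population lay clear of both arrays of the other in each case, and the Oas2 difference was nearly equal in both states, -1.40 without and -1.39 with IL-2 (-1.40 ± 0.11, adjusted p = 0.0122). Ifit1, which binds capped RNA that lacks host methylation and blocks its translation, measured 10.42 and 10.29 in GFPko and 9.25 and 8.73 in GFPfoxp3 cells, a fall of 2.59-fold (-1.37 ± 0.13, adjusted p = 0.0175). Usp18, the protease that removes ISG15 and restrains the interferon receptor, stood at 9.75 and 9.27 in GFPko and at 8.81 and 8.34 in GFPfoxp3 cells. It fell 1.92-fold (-0.94 ± 0.11, adjusted p = 0.0239). Bst2, or tetherin, which holds budding virus at the cell surface, measured 9.01 and 9.02 against 8.39 and 8.38 and fell by 0.63 ± 0.11 (adjusted p = 0.0475).

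Rsad2, Cmpk2 and Oas3 had differences of similar size that did not pass the test and were smaller with IL-2 than without. Rsad2 (viperin), which makes a chain-terminating nucleotide, differed by -1.75 in untreated and -0.82 in IL-2 arrays (mean -1.28 ± 0.31, adjusted p = 0.0908). Its gene-order neighbour Cmpk2, a mitochondrial nucleotide kinase, differed by -1.56 and -0.52 (-1.04 ± 0.28, adjusted p = 0.114). Oas3 differed by -1.48 and -0.78 (adjusted p = 0.052). The transcription factor Irf7 stood at 9.04 and 9.22 in GFPko and 8.55 and 8.64 in GFPfoxp3 cells, with a difference of -0.53 ± 0.10 (adjusted p = 0.0542). The 3 largest differences in the other direction were 0.65 for Oas1a, a synthetase of the same family, 0.58 for Eif2ak2, the kinase PKR that halts translation, and 0.51 for Stat2, with adjusted p-values of 0.101, 0.13 and 0.108. Oasl1, the remaining OAS family member, had -0.25 (adjusted p = 0.382). Eif2ak2 was also split by probe set: its 3 probe sets gave 0.58, 0.43 and -0.73, the last of them dim.

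**Figure D2:**
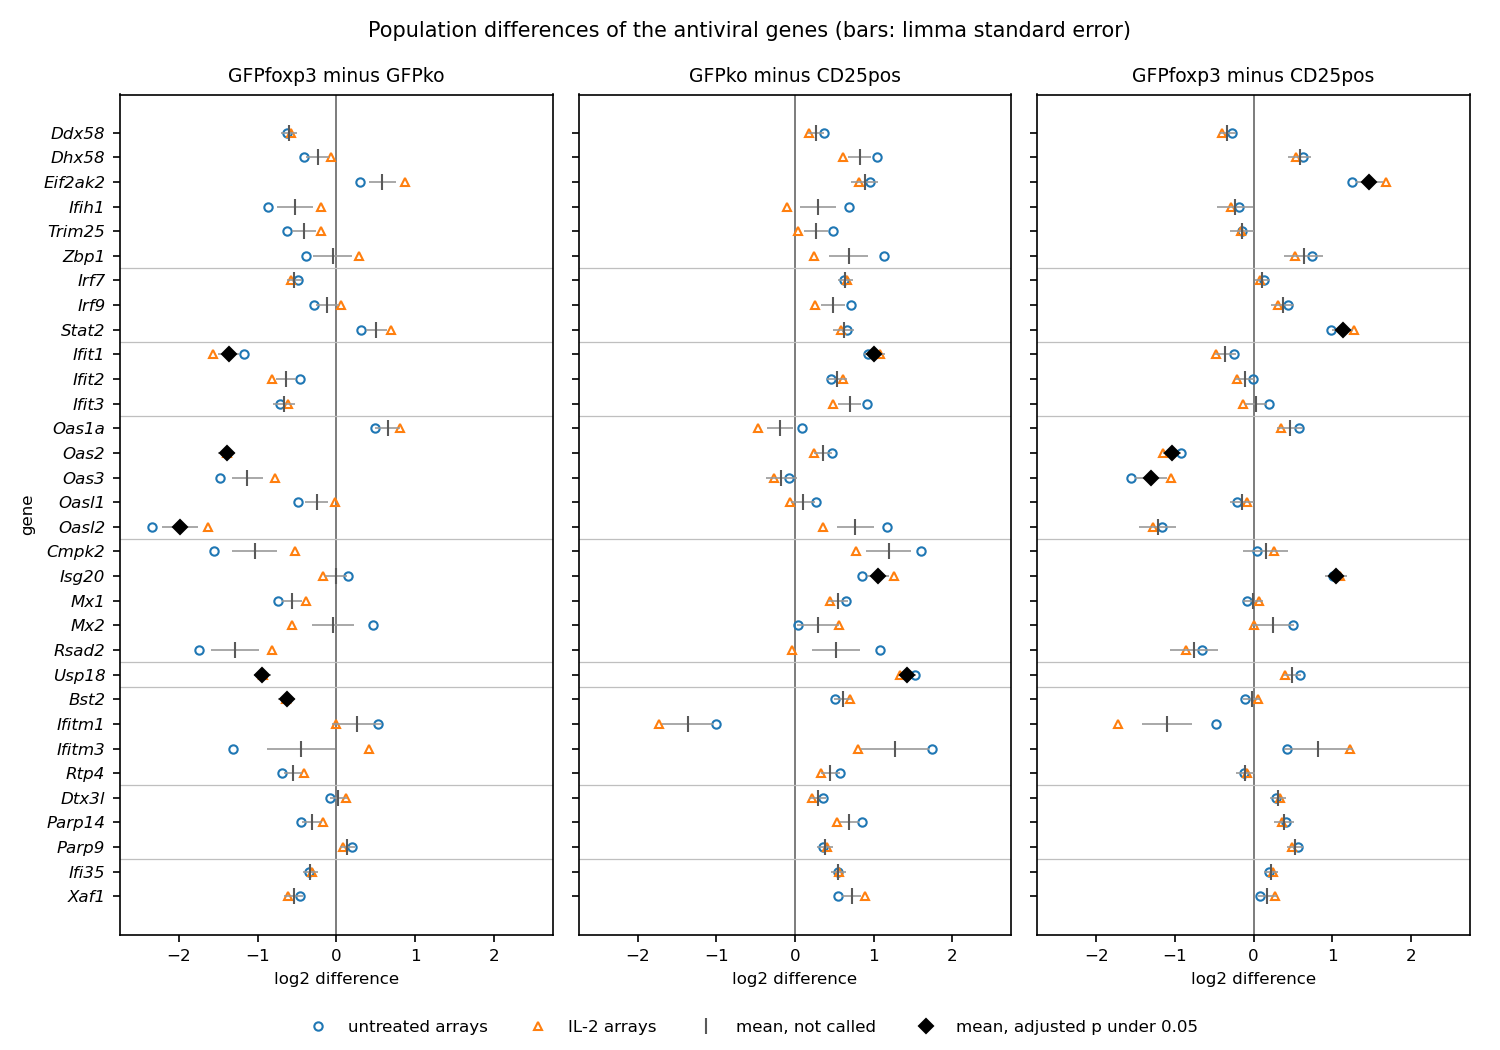
Log2 differences of the 32 genes for each pair of sorted populations, untreated arrays (circles) and IL-2 arrays (triangles), with the mean and limma standard error and calls at an adjusted p under 0.05 as diamonds. In the left panel Oasl2, Oas2, Ifit1, Usp18 and Bst2 are called lower in GFPfoxp3 cells, and in the middle panel 29 of 32 means lie above 0.

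Both GFPko arrays lay above both GFPfoxp3 arrays for 17 of the 32 genes, where 28.6% of all genes did so, and with centred arrays for 21 beside 42.7%. The count of calls moved with the scaling: with each array centred on the median of the kept genes, which shifts the median of all genes to -0.14, 15 members were lower and 0 higher, where 5.59% of all genes were lower and 5.91% higher under that setting. Over all genes, 72.9% of calls were higher in GFPfoxp3 cells as deposited and 51.4% after centring. The signs of Parp9 (0.14) and Dtx3l (0.02) turned under centring, and that of Dtx3l under quantile normalization too. Without the CD25pos arrays, whose IL-2 pair helps set the spread, 3 members were called, and the untreated or the IL-2 pair alone left 1, which was Oas2 in both. Over all genes these settings called 408, 181 and 188, beside 892 in the main fit. Markers of other cells moved alongside: the summed linear signal of 11 B cell markers was 1441 and 1077 in GFPko and 4916 and 4535 in GFPfoxp3 cells, with Cd79a and Pax5 below the array median in all 4. Most of that sum was Ighm, at 10.35 and 9.81 in GFPko and 12.18 and 12.04 in GFPfoxp3 cells, and H2-Aa ran the other way, at 5.07 and 5.60 against 3.69 and 4.02. Of 8 plasmacytoid dendritic cell markers 4 were above the median on every array, summing to 702 and 430 in GFPko and 852 and 808 in GFPfoxp3 cells, and the defining Siglech was below it on all 10. Among these markers Ccr9 stood at 8.22 and 7.09 in GFPko and 8.94 and 8.94 in GFPfoxp3 cells. Pacsin1 stood at 8.29 and 7.54 against 8.05 and 7.76. Of 13 myeloid markers 4 or 5 were above the array median in these arrays, summing to 12483 and 10454 against 10324 and 10085. Nearly all of that sum was Ctss (13.59 and 13.30 against 13.31 and 13.28). Lyz2 stood at 5.71 in GFPko_IL2 and at 3.25 to 4.03 on the other 9 arrays. Their part in the result was not tested.

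The CD25pos cells carry CD25 but not GFP-Foxp3, and so set the Foxp3-locus populations beside CD25+ cells without it. Against them GFPko cells had the higher level for 29 of 32 antiviral genes, with a median difference of 0.55 (all genes -0.01). Usp18, Isg20 and Ifit1 rose at an adjusted p under 0.05, where 1.25% of all genes rose, and 0 members fell, where 2.24% of all genes fell. By limma's unadjusted p under 0.05 there were 22 higher and 1 lower, where 6.68% of all genes were higher and 13.6% lower. These arrays of GFPko cells are also those of the comparison with GFPfoxp3 cells, so the comparisons are not independent.

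Usp18 measured 8.22 and 7.94 in CD25pos cells without and with IL-2 against 9.75 and 9.27 in GFPko cells, a rise of 2.69-fold (1.43 ± 0.11, adjusted p = 0.0207). Isg20, an exonuclease that degrades single-stranded RNA, stood at 9.21 and 9.24 in CD25pos and 10.07 and 10.50 in GFPko cells (1.06 ± 0.14, adjusted p = 0.0434). Ifit1 stood at 9.50 and 9.21 in CD25pos cells, 1.01 ± 0.13 lower than in GFPko cells (adjusted p = 0.0436). All 3 had both arrays of a population on one side. Among genes that did not pass, Ifitm3, a membrane protein that hinders virus entry, had a difference of 1.27 ± 0.43 (7.18 and 7.34 against 8.92 and 8.14, adjusted p = 0.219). Cmpk2 had 1.19 ± 0.28 (adjusted p = 0.12). The related Ifitm1 pointed the other way, with 3.81 and 5.10 in CD25pos and 2.81 and 3.37 in GFPko cells (-1.36 ± 0.32, adjusted p = 0.118), as did Oas1a at -0.19 and Oas3 at -0.18.

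Both GFPko arrays lay above both CD25pos arrays for 25 of the 32 genes, where 18.6% of all genes did so. With each array centred, the count was again 25, beside 41.2% of all genes. Centring moves the median of all genes to 0.13, and then 14 members were called higher and 0 lower, where 3.71% of all genes were higher and 3.48% lower. The share of all calls that were higher went from 35.8% to 51.6% with it. The 3 calls were lost with no filter on dim genes, without the GFPfoxp3 arrays, and in either IL-2 state alone, each of which left 0. Over all genes the same settings called 33, 0, 13 (untreated pair) and 9 (IL-2 pair), beside 416 in the main fit. Markers of CD8 and NK cells also differed: their summed signal was 2393 and 2780 in CD25pos and 148 and 240 in GFPko cells, with 6 of 7 above the array median in CD25pos and 4 and 5 in GFPko cells. Klrd1 stood at 8.91 and 9.46 against 3.04 and 4.57 and Eomes at 9.41 and 8.51 against 3.84 and 3.75, while Ncr1 was below the median in all 4. Cd8b1 ran the other way, at 4.47 and 4.48 against 4.86 and 5.53. Cd8a lay near the array median, at 3.15 and 3.15 against 3.21 and 3.15. The summed signal of the B cell markers was 2409 and 2268 in CD25pos cells, that of the plasmacytoid markers 1154 and 924, and that of the myeloid markers 7596 and 8429. Among the plasmacytoid markers Ccr9 stood at 9.57 and 9.17 in CD25pos and 8.22 and 7.09 in GFPko cells. Pacsin1 stood at 8.01 and 7.87 against 8.29 and 7.54. Their part in the result was not tested.

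Between GFPfoxp3 and CD25pos cells, both from Foxp3(gfp/gfp) mice, the calls went both ways, and the arrays are again those of the comparisons above. Eif2ak2, Stat2 and Isg20 rose in GFPfoxp3 cells, where 5.28% of all genes rose, and Oas3 and Oas2 fell, where 3.45% fell. The median difference of the 32 was 0.13 (all genes -0.03), with 18 above and 14 below 0. Eif2ak2 measured 5.25 and 5.23 in CD25pos and 6.50 and 6.91 in GFPfoxp3 cells, a rise of 2.77-fold (1.47 ± 0.17, adjusted p = 0.0213). Stat2, a subunit of the interferon-activated transcription complex, measured 5.27 and 5.19 against 6.25 and 6.47 (1.13 ± 0.14, adjusted p = 0.0224). Isg20 measured 10.22 and 10.33 in GFPfoxp3 cells, 1.05 ± 0.14 above CD25pos cells (adjusted p = 0.027), close to its level in GFPko cells. In none of these 3 did the arrays of the populations overlap.

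Oas3, the family member that senses long double-stranded RNA, stood at 6.63 and 6.88 in CD25pos and 5.07 and 5.83 in GFPfoxp3 cells (-1.31 ± 0.20, adjusted p = 0.0351). Oas2 stood at 7.58 and 7.50 in CD25pos cells and was 1.04 ± 0.11 lower in GFPfoxp3 cells (adjusted p = 0.0184). Oasl2 had a difference of -1.22 ± 0.23 that did not pass (adjusted p = 0.0576). Thus Oas2 was low in GFPfoxp3 cells against both other populations. Usp18 (0.49, adjusted p = 0.0764) and Parp9 (0.52, adjusted p = 0.0549) had differences above 0 that did not pass. The sign of Ifit3 (0.03) turned under quantile normalization. With no filter on dim genes 2 members were called, and in either IL-2 state alone 0. Over all genes 1042 were called in the main fit, 609 with no filter, 260 in the untreated and 238 in the IL-2 pair. For Eif2ak2 the 3 probe sets gave 1.47, 0.69 and -0.02, and for Stat2 the brighter gave 1.13 and a dim one 0.53. The summed signal of the CD8 and NK cell markers was 190 and 214 in GFPfoxp3 cells against 2393 and 2780 in CD25pos cells, with 4 and 5 of 7 above the array median against 6. The CD8 genes differed little, with Cd8b1 at 4.26 and 4.41 against 4.47 and 4.48 and Cd8a at 3.13 and 3.13 against 3.15 and 3.15. The summed signal of the B cell markers was 4916 and 4535 against 2409 and 2268, that of the plasmacytoid markers 852 and 808 against 1154 and 924, and that of the myeloid markers 10324 and 10085 against 7596 and 8429. Among the plasmacytoid markers Ccr9 stood at 8.94 and 8.94 in GFPfoxp3 and 9.57 and 9.17 in CD25pos cells. Pacsin1 stood at 8.05 and 7.76 against 8.01 and 7.87. Their part in the result was not tested.

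CD25neg cells, which lack both CD25 and GFP-Foxp3, had 1 array and no IL-2 partner, so differences from them carry no test and a gene was counted at 2-fold or more. GFPko cells were at least 2-fold above CD25neg cells for 5 genes and 2-fold below for 0, where 3.93% and 2.8% of all genes were. Ifitm3 led with 8.92 against 5.85 (3.08, or 8.44-fold), followed by Rsad2 at 1.42, Isg20 at 1.30, Mx1, a GTPase that restricts influenza virus, at 1.17 and Usp18 at 1.16. GFPfoxp3 cells were at least 2-fold higher for Ifitm3 (1.76), Isg20 (1.45) and Eif2ak2 (1.18), beside 7.31% of all genes. In the same pair Oas2 and Oasl2 were -1.47 each, Cmpk2 -1.07 and Oas3 -1.02, beside 3.63% of all genes. CD25pos cells were higher for Ifitm3 (1.33) and Ifitm1 and lower for Cmpk2 (-1.11), where 5.55% of all genes were 2-fold higher and 1.69% 2-fold lower. Ifitm1 stood at 3.81 against a CD25neg level of 2.67, which is below the array median, so its difference of 1.14 is at least 1.69-fold. Ifitm3 was thus above its CD25neg level in every other sorted population, and so was Isg20, by 2-fold or more in GFPko and GFPfoxp3 cells and with 9.21 against 8.77 in CD25pos cells. These 3 pairs share the CD25neg array, and without replicates nothing shows whether its level is typical.

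IL-2 signals through STAT5, not through the interferon receptor, and was given to ask how the populations respond to it. Over CD25pos, GFPko and GFPfoxp3 cells together, 0 of 32 antiviral genes passed limma's test in either direction, where 0.235% of all genes rose and 0% fell. The median difference was 0.00, as over all genes, with 17 above and 15 below 0. By unadjusted p under 0.05, 5 were lower and 3 higher, where 4.02% of all genes were lower and 6.54% higher. Rsad2 stood at 8.87, 9.96 and 8.21 in untreated CD25pos, GFPko and GFPfoxp3 cells and at 8.41, 8.37 and 7.55 with IL-2 (-0.90 ± 0.25, adjusted p = 0.401). Mx1 stood at 6.57, 7.22 and 6.48 without and 5.88, 6.34 and 5.95 with IL-2 (-0.70 ± 0.10, adjusted p = 0.179). Ifit3, of the same family as Ifit1, had -0.55 ± 0.12 (adjusted p = 0.309). Each of these 3 was lower with IL-2 in 3 of 3 populations, as were Usp18 at -0.41, Ifit1 at -0.31, Oas2, Oasl1 and Ifi35, 8 genes in all beside 18.2% of all genes. In turn 10 were higher in all 3 populations, beside 17.0% of all genes, namely Isg20, Irf7, Oas3, Ddx58, Dhx58, Rtp4, Parp9, Dtx3l, Xaf1 and Ifitm1. The 3' minus 5' Actb signal also moved with IL-2, from 3.80 to 2.86 in CD25pos, from 3.69 to 2.76 in GFPko and from 3.07 to 2.70 in GFPfoxp3 cells, and its part in these values was not tested. The largest differences above 0 were Ifitm1 at 0.63, Xaf1, a partner of the apoptosis inhibitor XIAP, at 0.51 and Oas3 at 0.36, with adjusted p-values of 0.503, 0.285 and 0.528. The signs of Parp14 and Mx2, both at 0.00, turned under other scalings.

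In single populations few members differed by 2-fold. In CD25pos cells Ifitm1 went from 3.81 to 5.10 (1.28), 1 member higher and 0 lower, where 0.997% and 0.352% of all genes were. In GFPko cells Rsad2 was 3-fold lower with IL-2 (-1.59), 1 member lower and 0 higher, where 2% and 2.91% of all genes were. In GFPfoxp3 cells 0 members differed 2-fold, where 1.73% of all genes were higher and 0.218% lower. The Rsad2 difference in GFPko cells did not reach 2-fold in the mean of its 3 probe sets; the second bright probe set stood at 8.04 without and 7.04 with IL-2.

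**Figure D3:**
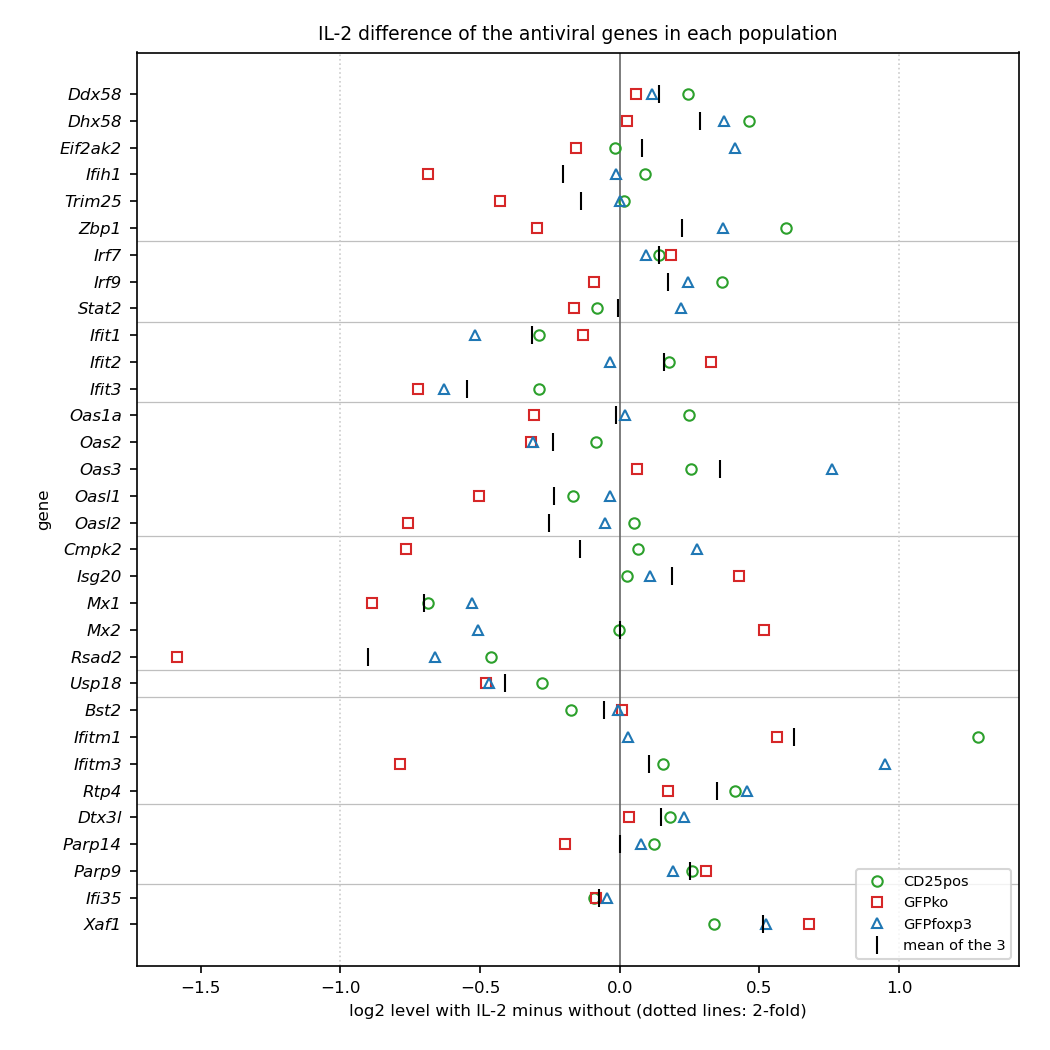
Log2 level with IL-2 minus without for each of the 32 genes in CD25pos, GFPko and GFPfoxp3 cells (1 array on each side), with their mean as a bar and 2-fold as dotted lines. Mx1, Ifit3, Rsad2, Usp18 and Ifit1 lie left of 0 in all 3 populations, while Ifitm3 spans -0.79 in GFPko to 0.95 in GFPfoxp3 cells.

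The transduced cells, cultured with IL-2, infected and passed through recipients, had lower mean levels of most antiviral genes than the directly sorted cells. For 15 of the 32 all 3 transduced arrays lay below all 7 arrays of directly sorted cells, where 25.2% of all genes did so. For 1, Oas1a, all 3 lay above, where 17.5% of all genes did. The mean was lower in transduced cells for 28 of 32, with a median difference of -0.74 against -0.08 over all genes. The 15 were Ifit2, Ifit3, Irf7, Stat2, Oas2, Oas3, Oasl1, Oasl2, Usp18, Bst2, Ddx58, Dhx58, Rtp4, Parp9 and Trim25. They include the RIG-I-like RNA helicases Ddx58 (RIG-I) and Dhx58 (LGP2), and Trim25, a ubiquitin ligase of the RIG-I pathway, but not the third such helicase Ifih1 (MDA5).

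Oasl2 stood at 3.34, 3.40 and 3.84 for the empty vector, MigR1-PDE3B and the mutant in turn, near background, against 5.79 to 8.18 with a median of 7.06 in sorted cells. Its mean difference was -3.42, or 10.7-fold. Oas3 stood at 3.40, 3.08 and 3.09 against 5.07 to 6.88, and since it was below the array median on 2 of the transduced arrays, no difference is given for it. Oas1a ran the other way, at 9.49, 9.03 and 9.20 against 8.18 to 8.99 (0.67). Usp18 measured 5.76, 6.46 and 5.67 against 7.94 to 9.75 (-2.74), Ifit3 7.15, 7.75 and 7.12 against 8.92 to 10.26 (-2.11), and Irf7 6.73, 6.65 and 6.80 against 8.42 to 9.22 (-2.03). For each of these but Oas1a the gap between the sets was wider than the range over the 3 transduced arrays.

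Other members overlapped between the sets. Ifih1 had 9.61 to 9.96 in transduced and 9.61 to 10.49 in sorted cells, Irf9 8.78 to 9.10 against 8.49 to 9.20, and the leucine-zipper protein Ifi35 12.19 to 12.29 against 11.94 to 12.58. Isg20 averaged 0.78 higher in transduced cells with overlap, and Ifitm1 2.21 higher, being high on 2 of the 3 arrays. Against the GFPfoxp3 arrays, the sorted cells nearest in Foxp3 level, Usp18 differed by -2.61, Oasl2 by -2.29 and Ifit3 by -1.90. Stat2 differed by -1.75 against GFPfoxp3 cells, where it was highest. With each array centred, 13 members lay below and 2 above, beside 15.2% and 31.4% of all genes. The second probe set of Parp14 stood at 8.27 to 8.93 in transduced cells and 5.45 to 6.35 in sorted ones, opposite to the one used. The other probe sets of Ifi35 stood at 6.86 to 7.48 against 7.58 to 8.99 and at 9.78 to 9.94 against 10.16 to 10.91. On both, unlike on the one used, the transduced arrays lay below every sorted array. The other probe sets of Ddx58 overlapped, at 5.53 to 6.73 against 5.60 to 6.73 and at 3.95 to 4.31 against 4.06 to 5.17. So did the second of Rtp4, at 4.43 to 5.14 against 4.41 to 5.28. The other probe sets of Trim25 lay below every sorted array, as the one used did. With probe sets averaged per gene 15 members lay below, 13 of them among the 15 named, beside 24.5% of all genes.

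The transduced and the sorted arrays also differ in RNA quality, cell history and strain of mouse, and the groups cannot be told apart from these. The Actb signal given above was higher on all 3 transduced arrays than on all 7 others. The summed signal of the 11 B cell markers was 6135 to 6955 on transduced and 1077 to 4916 on sorted arrays, that of the 8 plasmacytoid markers 1186 to 1514 against 430 to 1154, and that of the 13 myeloid markers 9193 to 10834 against 7596 to 12483. Among the plasmacytoid markers Ccr9 stood at 9.90 to 10.30 on transduced and 6.88 to 9.57 on sorted arrays. Pacsin1 ran the other way, at 7.11 to 7.32 against 7.54 to 8.29. Siglech was below the median on every array. The part of these in the result was not tested.

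**Figure D4:**
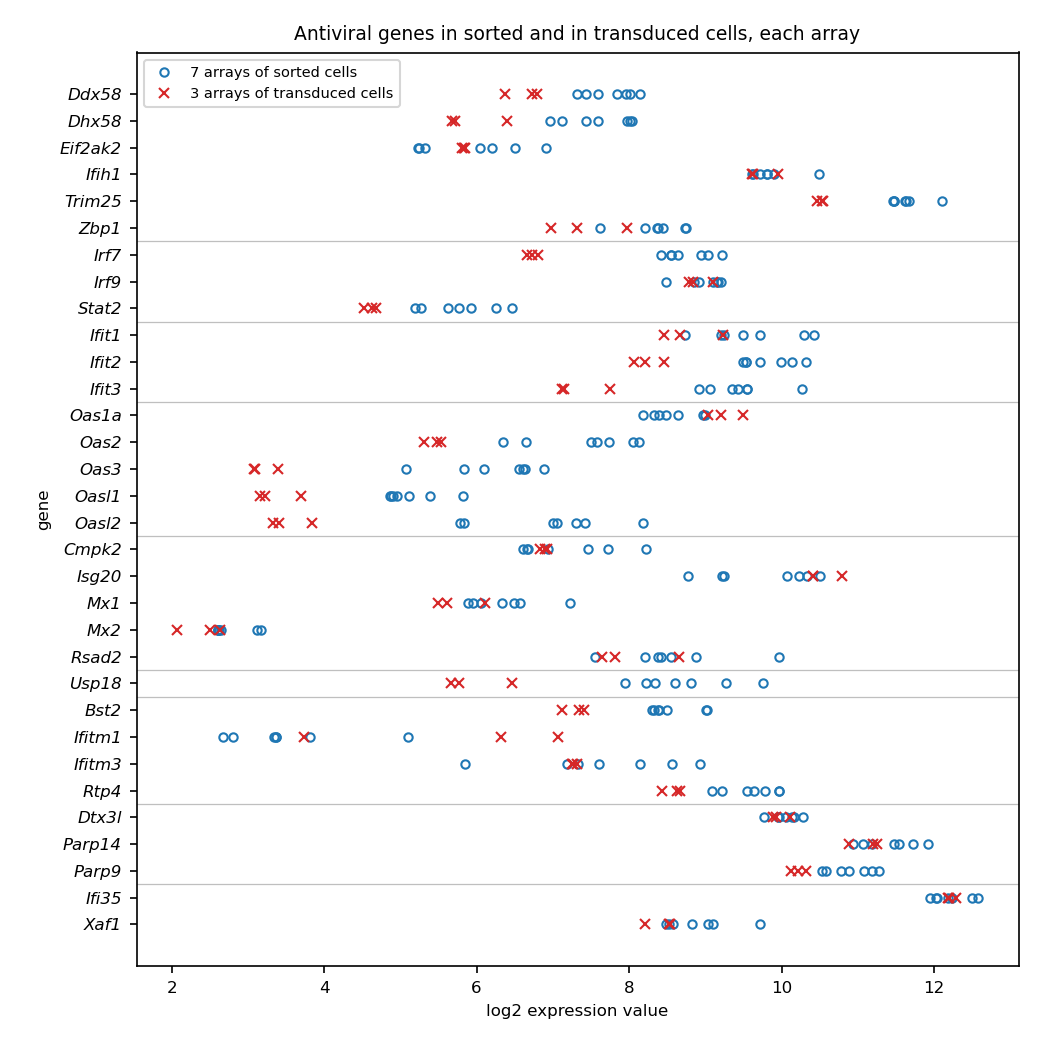
Log2 expression values of the 32 genes, 1 point per array, in the 7 arrays of directly sorted cells (circles) and the 3 of transduced cells (crosses). The crosses lie left of every circle for 15 genes, among them Oasl2, Usp18 and Irf7, and right of every circle for Oas1a.

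Among the vectors the question was what PDE3B activity changes. Few antiviral genes differed 2-fold between the 3 arrays, and none of these pairs has a replicate. On the array labelled MigR1-PDE3B Rsad2 was higher than with the empty vector (8.66 against 7.64, 1.02) and 0 members were lower, where 1.2% of all genes were higher and 4.25% lower. The second bright probe set of Rsad2 pointed the other way, at 5.10 against 5.47. Ifit1 (0.77), Usp18 (0.70) and Ifit3 (0.60) had the next largest differences above 0, and Ifitm1 (-0.75), Dhx58 (-0.73) and Zbp1 (-0.66) the largest below. The second bright probe set of Zbp1 stood at 7.76 against 7.78. The median was 0.06 over the 32 genes and -0.05 over all. The 3' minus 5' Actb signal was 6.38 on the array labelled MigR1-PDE3B, 5.87 with the empty vector and 5.95 with H801A. Its part in these values was not tested.

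With H801A against the empty vector only Ifitm1 was 2-fold lower, at 3.73 against 7.07 (-3.34, or 10.1-fold), and 0 were higher, where 1.37% of all genes were lower and 0.93% higher. Zbp1, a sensor of Z-form nucleic acid that can start necroptosis, was just short of 2-fold, at 6.97 against 7.97. Its second bright probe set differed less, at 7.45 against 7.78. After quantile normalization 2 members were 2-fold lower. MigR1-PDE3B against the mutant had Ifitm1 higher (6.33 against 3.73, 2.59) and 0 lower, where 0.737% of all genes were higher and 2.3% lower. So the low Ifitm1 value belonged to the H801A array alone, and with a single probe set and array nothing shows how it would repeat. Ifitm3, its neighbour in the gene order, stood at 7.32, 7.25 and 7.27 in the 3 arrays.

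**Figure D5:**
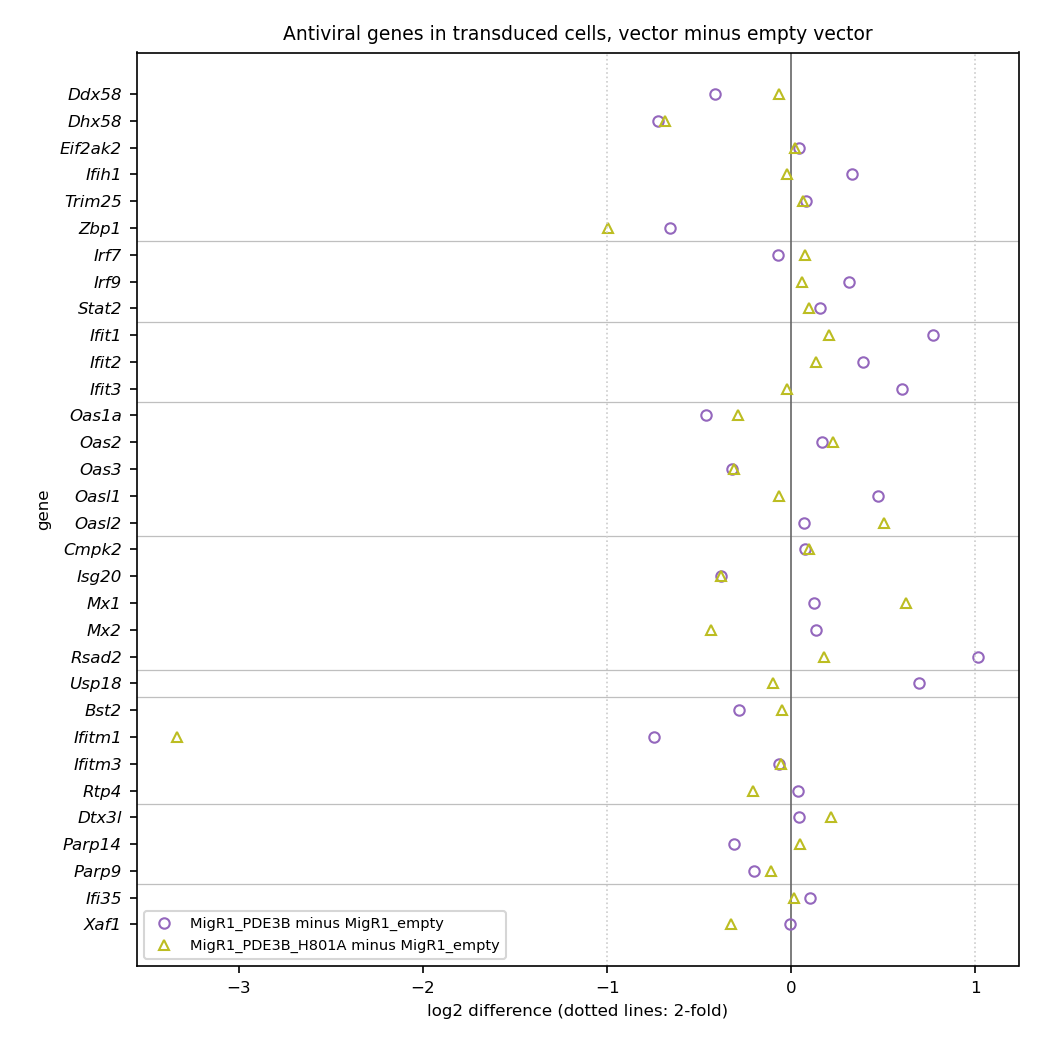
Log2 differences of the 32 genes from the empty vector, for PDE3B (circles) and H801A (triangles), 1 array each, with 2-fold as dotted lines. Ifitm1 at -3.34 with H801A and Rsad2 at 1.02 with PDE3B are the points past the lines, and Zbp1 with H801A lies at the line.

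The 32 genes did not all vary together. Correlating each with the mean of the others over the 10 arrays gave a median Pearson r of 0.78, with 18 above 0.7, as a description over arrays that share 2 experiments. Usp18 (0.97), Bst2 (0.97), Trim25 (0.96), Ifit3 (0.95) and Irf7 (0.95) followed the rest most closely. Oas1a (-0.78), Ifitm1 (-0.72) and Isg20 (-0.35) ran against them. Within the 7 sorted arrays the median was 0.58 and 11 were above 0.7, led by Ifi35 (0.92), Bst2 (0.91) and Usp18 (0.89). Oas1a (-0.39) and Ifitm1 (-0.49) stayed below 0 there, whereas Isg20 had 0.46. Eif2ak2 (0.17 and 0.24) followed the others weakly in both sets, and Oasl1 only over all 10 arrays (0.85, and 0.03 in the sorted arrays).

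Members that lie side by side in the RefSeq gene order did not always share a pattern. The next-door genes were Rsad2 and Cmpk2 on chromosome 12, Parp14, Dtx3l and Parp9 on chromosome 16, Ifit2 and Ifit3 on chromosome 19, Oasl2 and Oasl1 and also Oas2 and Oas3 on chromosome 5, and Ifitm1 and Ifitm3 on chromosome 7. Rsad2 and Cmpk2 were both highest in untreated GFPko cells, at 9.96 and 8.22. In transduced cells Oasl2 and Oasl1 were both below every sorted array. Parp9, a macrodomain protein, was below every sorted array in transduced cells. The probe set used for its partner Dtx3l, a ubiquitin ligase, overlapped (9.89 to 10.11 against 9.77 to 10.29). The second Dtx3l probe set did not, at 8.10 to 9.21 against 9.57 to 10.00, so this contrast depends on the probe set. The Ifitm pair had separate maxima, since Ifitm3 peaked in GFPko cells (8.92) and Ifitm1 with the empty vector (7.07).

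The 8 genes outside the set with the highest r to its mean over 10 arrays, among 3821 with an SD of at least 0.5, were Bcl2 (0.98), Trib2 (0.97), Arap2 (0.97), S1pr1 (0.97), Rasl11b (0.96), Ralgps2 (0.96), Foxn3 (0.96) and Gramd4 (0.96). Bcl2, the survival factor, stood at 11.84 and 12.24 in GFPko, 10.80 and 10.56 in GFPfoxp3 and 8.10 to 8.35 in transduced cells. S1pr1, the receptor that lets T cells leave lymph nodes, stood at 9.77 and 9.92, 8.78 and 8.70, and 5.26 to 5.98 in the same groups. Both were picked for their likeness to the antiviral mean, so sharing its order of these groups was built into the choice. With IL-2 that mean went from 8.69 to 8.50 in GFPko and from 8.12 to 8.17 in GFPfoxp3 cells. Bcl2 and S1pr1 moved the other way in each. The likeness is a description over 10 arrays of 2 experiments.

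Of 16 interferon genes listed, 10 had a probe set. The 8 genes Ifna1, Ifna2, Ifna4, Ifna5, Ifna9, Ifna11, Ifnab and Ifnb1 lay below the median on all 10 arrays. Their transcripts were thus not measured above background in these cells. Ifnz and Ifng were the 2 kept. Ifnz, also a type I interferon gene, lay above the median on all 10 arrays, at 4.68 to 6.45. Ifng, the type II interferon, was lower in GFPko than in CD25pos cells (4.54 and 4.83 against 8.14 and 8.33, -3.55 ± 0.12, adjusted p = 0.00877) and likewise in GFPfoxp3 cells (-3.34 ± 0.12, adjusted p = 0.00479). GFPko cells held the 2 lowest Ifng levels of the 10 arrays, with GFPfoxp3 cells close by at 4.92 and 4.88. The difference of GFPfoxp3 from GFPko cells was 0.21 ± 0.12 (adjusted p = 0.373). Of 19 receptor and signalling genes kept, 3 rose and 1 fell in GFPfoxp3 against GFPko cells, beside 5.44% and 2.03% of all genes. Ifnar1, a subunit of the type I receptor, was higher in GFPfoxp3 cells (8.90 and 8.87 against 7.79 and 7.90, 1.04 ± 0.10, adjusted p = 0.0175). Ifngr1 (1.81 ± 0.22, adjusted p = 0.026) and Irf5 (1.96 ± 0.14, adjusted p = 0.00996) were higher and Ifngr2 lower (-2.22 ± 0.37, adjusted p = 0.0459). The median of this list was 0.07, and its counts were 3 and 1 against CD25pos cells as well. On the array labelled MigR1-PDE3B Ifnar1 stood at 4.74, against 6.90 with the empty vector and 6.11 with H801A. That array also had the highest 3' minus 5' Actb signal of all, whose part in this value was not tested.

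Other interferon-related lists had few calls in the GFPfoxp3 and GFPko pair. Among 20 kept genes that lean to interferon gamma, such as guanylate-binding proteins and antigen-processing genes, 1 rose and 0 fell in GFPfoxp3 against GFPko cells, with a median of 0.18. The one was Gbp3 (1.45 ± 0.25, adjusted p = 0.0492), and 1 of 20 is close to the 5.44% of all genes that rose. Against CD25pos cells 6 rose in GFPfoxp3 and 3 in GFPko cells, where 5.28% and 1.25% of all genes rose, and 0 fell in either. Gbp2b, a guanylate-binding protein, stood below background in both CD25pos arrays (2.61 and 2.60) and at 8.76 and 7.96 in GFPko and 9.17 and 9.11 in GFPfoxp3 cells, at least 39.2-fold and at least 67.4-fold higher. Of 33 other interferon-induced genes outside the set, 1 rose (Ifitm2, 1.30 ± 0.21, adjusted p = 0.0433) and 1 fell (Slfn1, -1.57 ± 0.24, adjusted p = 0.0413) in GFPfoxp3 against GFPko cells, with a median of -0.03. Of 12 genes of nucleic acid sensing, Sting1 rose there (0.78 ± 0.10, adjusted p = 0.0267) and none fell. No gene of any of the 5 lists passed the test for IL-2.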

How the data were processed

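RNA of 10 pooled samples, 1 per group, was amplified in 2 rounds and hybridised to Affymetrix 430 2.0 arrays. The deposited log2 expression values (0.941 to 15.9) were used as given; per the series' design text the authors normalized the 10 arrays together, with software not given in the sources used here. Of 45101 probe sets, 34958 were annotated to 1 gene, 932 to several and 9211 to none. Each gene took its brightest probe set, and 11939 of 18194 genes with 1 array or more at or above its own median were kept. The 34 genes and the other lists were chosen with earlier results of these data known. The 6 arrays of CD25pos, GFPko and GFPfoxp3 cells without and with IL-2 were fitted over all kept genes with limma (version 3.58.1, R 4.3.3) on population and IL-2, without their interaction, which left 2 residual degrees of freedom (prior 2.23). P-values were adjusted by Benjamini-Hochberg over all kept genes, and all adjusted p-values come from limma. Other pairs are single arrays, read at 2-fold without a test. Where the lower side lay below its array median, the fold is a bound against that median. Members called or past 2-fold are named, otherwise the largest differences each way, and up to 4 genes of each other list. The fit was tested on simulated data. Alternatives, whose effect the closing section gives, were quantile normalization, centred arrays, other filters, probe set rules, thresholds, limma settings and arrays left out; those for counts of arrays that do not overlap were chosen after seeing the data.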

Additional observations from a re-analysis of the deposited data

Results flagged for a closer look

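For 2 antiviral genes the values with and without IL-2 differed by over 0.5 log2 units in opposite directions in GFPko and GFPfoxp3 cells. Ifitm3 went from 7.61 to 8.56 in GFPfoxp3 cells (0.95) and from 8.92 to 8.14 in GFPko cells (-0.79), so that the differences are 1.74 apart, and CD25pos cells had 0.15. Mx2 had 0.52 in GFPko and -0.51 in GFPfoxp3 cells, 1.03 apart, with levels of 2.61 to 3.17 that lie around the array median. The difference was not tested for either gene, since each value comes from 1 array on each side. Outlying samples within a group could not be looked for with 1 array per group.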

How the results depend on the processing

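The fit on population and IL-2 compared populations within each IL-2 state, and with 1 array per group no replicate numbers could pair samples. Of the counts of antiviral genes under alternative settings, 108 stayed within 1.5 times the reported count and 26 did not. Not every count could move. Filters on dim genes left the values of single pairs unchanged, and the fit on all 10 arrays repeated the main fit. Counts of 0 that stayed at 0 are among the 108. None of the named calls changed direction. In GFPfoxp3 against GFPko cells 5 genes were called. That count was 15 with centred arrays, 9 with probe sets averaged per gene, 3 with no filter on dim genes, 3 without the CD25pos arrays, 1 in the untreated pair and 1 in the IL-2 pair. Over all genes 892 were called, and in the same order 1373, 945, 382, 408, 181 and 188. Oas2 was called in 11 of 11 alternatives there (adjusted p 0.0019 to 0.0493 in limma), Ifit1, Usp18 and Oasl2 in 8, and Bst2 in 6 (0.0155 to 0.16). Not all of these could change a call. The fit on all 10 arrays gave each added array its own term and so returned the main result. Each of these 5 genes has 1 probe set, so the probe set rules left its own values unchanged. In GFPfoxp3 against CD25pos cells the 5 calls became 2 with no filter and 0 in the untreated and 0 in the IL-2 pair. Calls over all genes went from 1042 to 609, 260 and 238. In GFPko against CD25pos cells the 3 calls became 14 with centred arrays, 5 with the mean of probe sets, and 0 with no filter, without the GFPfoxp3 arrays, or in either pair alone. Over all genes the 416 calls became, in that order, 858, 429, 33, 0, 13 (untreated pair) and 9 (IL-2 pair). Single pairs used the spread of the full fit, on fewer arrays, and no filter adjusted over more genes. At 3-fold in place of 2-fold the count was 0 for CD25pos against CD25neg, 1 for GFPko and 1 for GFPfoxp3 against CD25neg, 0 for MigR1-PDE3B against the empty vector and 0 for IL-2 in CD25pos cells. The mean of probe sets left 0 for MigR1-PDE3B and 0 for IL-2 in GFPko cells, and quantile normalization gave 2 for H801A against the empty vector. No counts over all genes were taken for these pairs of single arrays under those settings. All 3 transduced arrays lay above all 7 others for 2 members, not 1, under quantile normalization, centring and the mean of probe sets, settings chosen after seeing the data. The shares of all genes were 14.9%, 31.4% and 16.7% there. With 1 array per group, standard errors cover only the agreement between IL-2 states, and values near the array median of 3.04 to 3.22 carry little signal over background.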

Other observations

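Interferon-related genes outside the antiviral set differed between the vectors on single arrays, as values without a test. With MigR1-PDE3B against the empty vector 2 of 19 kept receptor and signalling genes were 2-fold lower, Ifnar1 (4.74 against 6.90, -2.17) and the interferon gamma receptor subunit Ifngr2 (3.67 against 4.72, -1.05), and 0 were higher. Tap2, a subunit of the peptide transporter that loads MHC class I, stood at 7.40 against 9.08 (-1.67), Oas1b at 3.46 against 4.85 (-1.39) and Uba7, the enzyme that activates ISG15, at 6.88 against 8.26 (-1.38). With the H801A mutant all 5 genes also had values below the empty vector, Ifnar1 at -0.80, Ifngr2 at -1.34, Oas1b at -0.72, and Tap2 and Uba7 at levels of 8.07 and 7.73. Over all genes 4.25% were 2-fold lower with MigR1-PDE3B and 1.37% with the mutant. The 3' minus 5' Actb signal was 6.38 with MigR1-PDE3B, 5.87 with the empty vector and 5.95 with H801A. The median of the kept genes was 6.43, 6.65 and 6.55 in the same order. The part of either in these values was not tested.

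Against CD25neg cells GFPfoxp3 cells held higher levels of the transcription factors Irf4 (9.89 against 6.11, 3.77), Irf8 (7.73 against 5.35, 2.38) and Irf5 (5.37 against 3.36, 2.01), and of Tlr7, the endosomal receptor for single-stranded RNA (5.72 against 3.54, 2.18). Samhd1, which depletes nucleotides, stood at 12.69 against 11.06 (1.63), and Slfn1 at 7.04 against 8.84 (-1.80). Not all of this was particular to GFPfoxp3 cells. In untreated CD25pos and GFPko cells Irf4 stood at 9.86 and 9.40, Irf8 at 8.29 and 6.42 and Irf5 at 3.49 and 3.62. Tlr7 stood there at 4.23 and 5.31, Samhd1 at 11.14 and 12.02 and Slfn1 at 8.01 and 8.23. These are single arrays, and 7.31% of all genes were 2-fold higher in that pair.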
